A study of Homo sapiens with 12 samples.

Results

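BTLA and the genes grouped with it here encode immune checkpoint receptors and ligands, and they were followed across SKM1 leukaemia cells treated with 2 drugs. The list named 10 genes, and a gene was included where its symbol in the platform annotation matched the list. Of the 10, 9 had a row among the 28125 named genes tested: BTLA, TNFRSF14, HAVCR2, CD80, CD86, CD276, CD274, PDCD1LG2 and CD47. LGALS9, which encodes galectin-9, was not analysed here. BTLA heads the list because it had the most negative log2 change with AZA against NT of all 28125 genes in an earlier look at the same values, and the list was drawn up with results from all 12 arrays known. For that reason, values of AZA or APR-AZA arrays against NT arrays are given below as a description with no test, as are BTLA's values in every comparison. The p-values of the other members set a difference against the spread between arrays, and they are not independent evidence, since those members were also listed with these values known.

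SKM1 is an established human myeloid leukaemia cell line, grown here as a single line, so the arrays show 1 genetic background and no host immune cells. Cells received APR-246 together with 5-azacytidine (APR-AZA), 5-azacytidine alone (AZA), APR-246 alone (APR) or no drug (NT), each drug at its IC50, for 18 h before RNA extraction. Each group had 3 arrays. 5-Azacytidine is a cytidine analogue that enters RNA and DNA and traps DNA methyltransferases, and APR-246 is a prodrug whose product binds thiols.

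Immune checkpoints are receptor and ligand pairs that restrain or tune immune cells. BTLA, an inhibitory receptor of lymphocytes and some myeloid cells, binds TNFRSF14 (also called HVEM) and passes its signal through the phosphatases PTPN6 and PTPN11. CD80 and CD86 bind CD28, which stimulates T cells, and CTLA4, which restrains them. CD274 (PD-L1) and PDCD1LG2 (PD-L2) bind PD-1, CD47 is the surface signal that binds SIRPA on phagocytes and restrains engulfment, and HAVCR2 (TIM-3) is a receptor found on exhausted T cells, monocytes and acute myeloid leukaemia stem cells.

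Over all rows, the correlation was 0.994 to 0.996 within a group and 0.978 to 0.984 between an array with AZA and one without. Of 10 myeloid marker genes listed, 9 were measured, and all 9 had a mean signal above the median gene, MPO and LYZ among them. That position was not particular to the myeloid list. It also held for 5 of 9 measured T cell, 3 of 6 NK cell, 3 of 7 B cell and 3 of 6 dendritic cell markers. With APR-AZA against APR, SPI1, CD68 and ANPEP rose and MPO, CEBPA and LYZ fell by limma's test. The mean log2 signal of 9 measured T cell markers ran from 4.64 to 4.83 in APR-AZA arrays, 4.66 to 4.77 in AZA arrays, 4.72 to 4.83 in APR arrays and 4.67 to 4.78 in NT arrays. Of these T cell markers CD3E rose and CD4 fell with APR-AZA against APR (log2 0.34 and -0.36). For 6 NK cell markers it ran from 5.34 to 5.40 in APR-AZA, 5.36 to 5.44 in AZA, 5.14 to 5.22 in APR and 5.10 to 5.17 in NT arrays, and of these NCAM1 and NKG7 rose with APR-AZA against APR (log2 0.65 and 0.68). For 7 measured B cell markers the ranges were 4.65 to 4.73 in APR-AZA arrays, 4.55 to 4.66 in AZA arrays, 4.50 to 4.57 in APR arrays and 4.52 to 4.60 in NT arrays, and for 6 dendritic cell markers 4.49 to 4.57 in APR-AZA, 4.55 to 4.68 in AZA, 4.50 to 4.52 in APR and 4.52 to 4.55 in NT arrays. Of the B cell markers FCRL1 rose with APR-AZA against APR (log2 0.31), and limma called 0 of the dendritic cell markers. The part of these shifts in the results below was not tested. In bulk RNA of 1 line, a change in some cells and a change in all cells cannot be told apart.

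BTLA was high in cells without AZA and low in cells with it. Its log2 signal was 4.10, 3.94 and 4.07 in the APR-AZA arrays, 4.04, 3.88 and 4.28 in the AZA arrays, 7.96, 7.68 and 7.87 in the APR arrays and 8.12, 8.26 and 8.57 in the NT arrays. The order of the group means was NT, APR, AZA and APR-AZA from high to low, the values of the last 2 overlapped, and the other neighbours did not overlap. BTLA was 19.0-fold lower with AZA than in NT, a log2 difference of -4.25 ± 0.13 (SE, n = 3 each). In the 6 arrays that comparison did not use, it was 13.9-fold lower in APR-AZA than in APR (log2 -3.80 ± 0.13, SE). Among 28125 genes this was the most negative change in AZA against NT, in APR-AZA against NT and in APR-AZA against APR. The first of these is how the gene was chosen, and the second shares its NT arrays. The arrays of the third were also known when the list was drawn up. With AZA the signal of BTLA lay under the array medians of 4.69 to 4.78. The normalization compresses differences in that range, so the folds may be understated. The choice of BTLA on its change in AZA against NT favours a large fold there, so the 19.0-fold value may also be overstated.

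**Figure D1:**
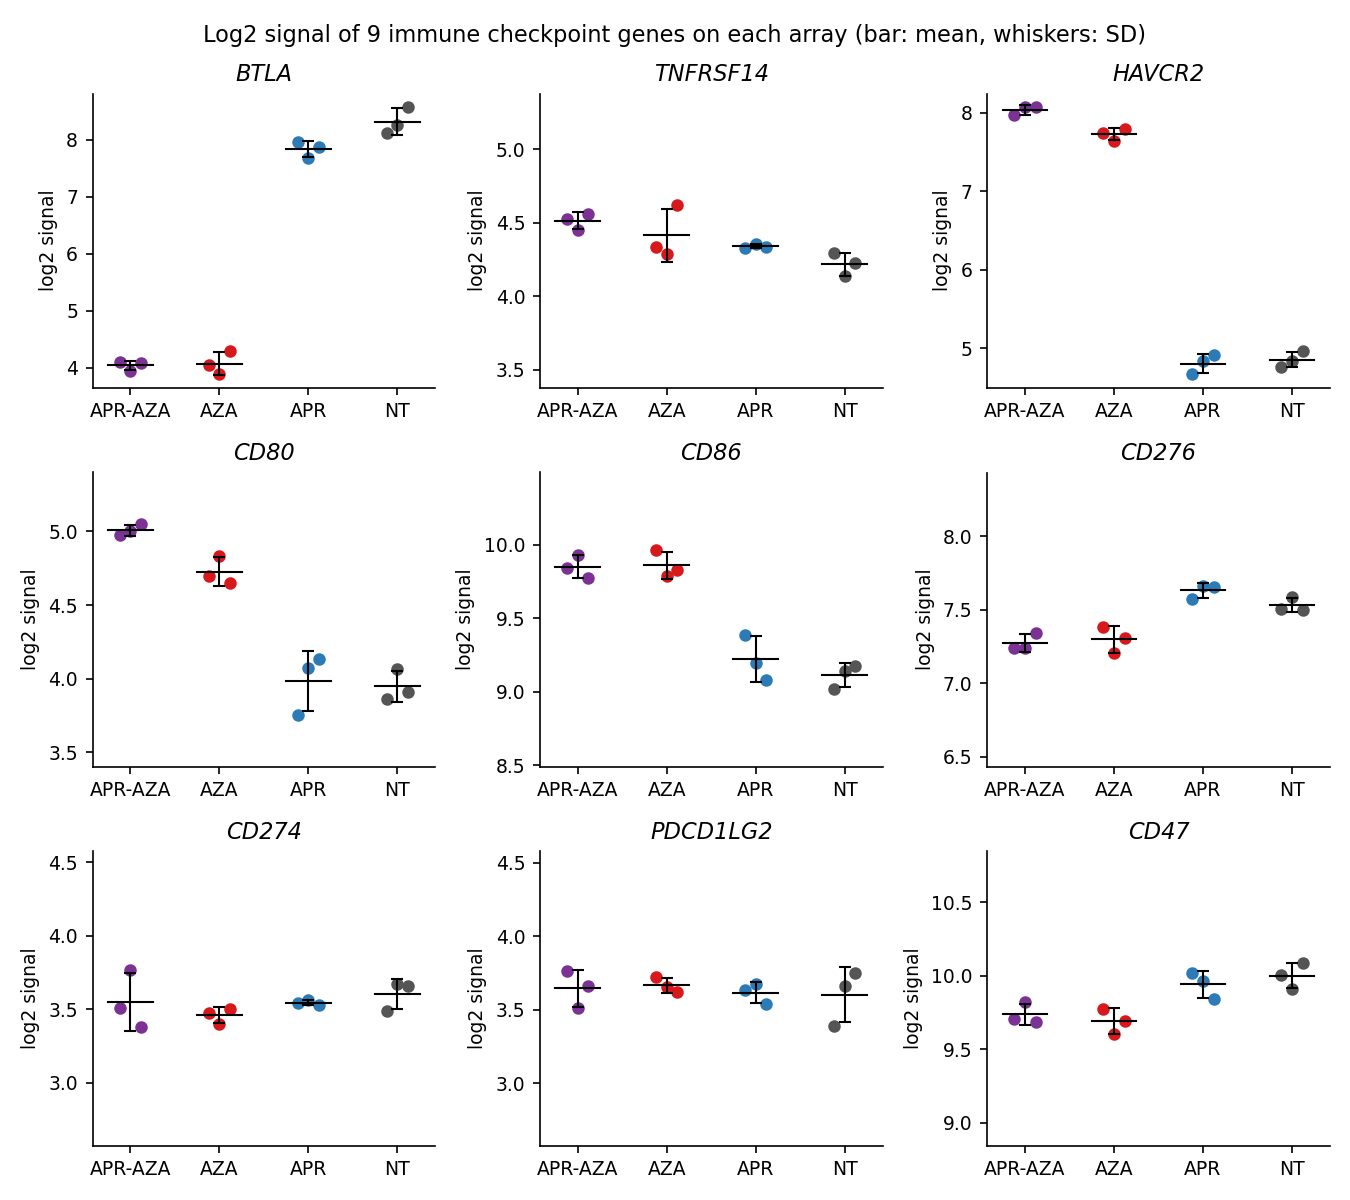
Log2 signal (vertical axis) of 9 checkpoint genes on every array, with a point for each array, a bar for the mean and whiskers for the SD of 3 arrays, in the groups APR-AZA, AZA, APR and NT. BTLA stood near 4 in all 6 arrays with AZA and at 7.68 to 8.57 in the 6 without, and HAVCR2 had the opposite pattern; each panel has its own axis, of at least 2 log2 units.

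To show the DNA in front of the genes that moved with AZA, the 250 bases before the RefSeq start (assembly GRCh38.p14) are printed for BTLA, which was low with AZA, for CD80 and CD86, which were high, and for CD276, which was lower. DNA methyltransferases act on CpG dinucleotides, and CpGs are in capitals here. The windows are chr3:112499473-112499722 (minus strand) for BTLA, chr3:119559615-119559864 (minus strand) for CD80, chr3:122055112-122055361 (plus strand) for the first listed of CD86's starts and chr15:73684133-73684382 (plus strand) for the first listed of CD276's.
BTLA: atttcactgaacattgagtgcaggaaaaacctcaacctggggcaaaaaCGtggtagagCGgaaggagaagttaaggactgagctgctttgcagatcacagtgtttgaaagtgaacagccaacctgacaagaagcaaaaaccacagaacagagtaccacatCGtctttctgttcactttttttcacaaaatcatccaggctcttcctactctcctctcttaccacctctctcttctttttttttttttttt
CD80: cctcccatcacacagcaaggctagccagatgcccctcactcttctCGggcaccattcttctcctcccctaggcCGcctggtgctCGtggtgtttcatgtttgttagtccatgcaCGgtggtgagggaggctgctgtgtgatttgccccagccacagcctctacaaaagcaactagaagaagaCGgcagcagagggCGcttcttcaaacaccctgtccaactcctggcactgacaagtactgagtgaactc
CD86: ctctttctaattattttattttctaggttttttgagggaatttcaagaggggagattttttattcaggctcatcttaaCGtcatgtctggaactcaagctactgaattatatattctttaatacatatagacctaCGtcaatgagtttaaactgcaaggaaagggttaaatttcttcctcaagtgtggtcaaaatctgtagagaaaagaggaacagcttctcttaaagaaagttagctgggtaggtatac
CD276: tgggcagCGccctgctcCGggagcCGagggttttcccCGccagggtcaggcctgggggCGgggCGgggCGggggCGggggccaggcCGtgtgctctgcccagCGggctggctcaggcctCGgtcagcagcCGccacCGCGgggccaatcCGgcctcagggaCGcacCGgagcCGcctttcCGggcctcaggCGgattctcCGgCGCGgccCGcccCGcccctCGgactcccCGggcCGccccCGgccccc
The BTLA window held 3 CpGs, a number that 29.3% of 35116 RefSeq windows did not exceed, against a median of 11. CD80 held 6, the CD86 starts 2 and 4, TNFRSF14 9, LGALS9 1, CD274 16, the CD276 starts 29 and 23 and CD47 39. At least 1 CpG is present in 93.9% of all windows, 8 of the 10 listed genes had a window in the table, the other 2 being HAVCR2 and PDCD1LG2, and the counts describe sequence alone.

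TNFRSF14, the ligand of BTLA, showed small differences, at signals under the array medians of 4.69 to 4.78, where differences may be understated. Its log2 signal was 4.53, 4.45 and 4.56 in the APR-AZA arrays, 4.34, 4.29 and 4.62 in the AZA arrays, 4.33, 4.36 and 4.34 in the APR arrays and 4.30, 4.14 and 4.23 in the NT arrays. All 3 APR-AZA arrays lay above all APR and NT arrays, while the AZA arrays overlapped the other treated groups and NT. The difference between APR-AZA and APR, 0.17 ± 0.09 on the log2 scale (SE; 95% interval -0.03 to 0.37), did not pass limma's test (adjusted p = 0.242). TNFSF14 (LIGHT), a T cell stimulating ligand that also binds TNFRSF14, fell. It stood at 6.86, 6.71 and 6.53 in APR-AZA arrays, at 6.98, 7.03 and 7.01 in AZA arrays, at 8.77, 8.68 and 8.88 in APR arrays and at 8.71, 8.65 and 8.63 in NT arrays. That was 4.22-fold lower in APR-AZA than in APR (limma adjusted p = 4.89e-09). The further TNFRSF14 ligands LTA and CD160 had log2 changes of 0.04 ± 0.11 and -0.11 ± 0.09 (SE) and were not called. Of the phosphatases that BTLA recruits, PTPN6 was 1.34-fold higher in APR-AZA than in APR (limma adjusted p = 0.00313) and PTPN11 stood at 0.04 ± 0.08 on the log2 scale and was not called.

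The effect of AZA on the other members was compared in APR-AZA against APR, which shares no array with AZA against NT. The list was drawn up with these arrays known as well, so nothing is read from how its counts compare with those over all genes. Of the 8 members tested, 4 were called by limma at an adjusted p under 0.05, against 20.7% of all genes: HAVCR2, CD80 and CD86 were higher and CD276 was lower. By direction, 3 members were called higher, against 9.45% of all genes, and 1 lower, against 11.2%. CD47 was the 1 further member with an unadjusted p under 0.05, which made 5 of 8, against 29.7% of all genes. With BTLA counted as a description, the arrays did not overlap for 7 of the 9 measured members, against 34.3% of all genes. The median log2 change over the 9 measured members was 0.03, against 0.00 over all genes, with 6 members above 0 and 3 below.

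HAVCR2 had the pattern opposite to BTLA. Its log2 signal was 7.97, 8.07 and 8.07 in the APR-AZA arrays, 7.74, 7.64 and 7.79 in the AZA arrays, 4.67, 4.83 and 4.91 in the APR arrays and 4.77, 4.83 and 4.96 in the NT arrays. Every array with AZA was above every array without it, and the APR and NT arrays overlapped. HAVCR2 was 9.41-fold higher in APR-AZA than in APR, a log2 change of 3.23 ± 0.09 (SE; limma adjusted p = 1.2e-10). In AZA against NT it was 7.32-fold higher (log2 2.87 ± 0.09, SE), given as a description. Ranked by log2 change, it was number 27 of 28125 from the top in APR-AZA against APR.

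The B7 ligands CD80 and CD86 rose together. CD80 stood at 4.98, 5.00 and 5.05 in the APR-AZA arrays, at 4.70, 4.84 and 4.65 in the AZA arrays, at 3.75, 4.07 and 4.13 in the APR arrays and at 3.86, 4.07 and 3.91 in the NT arrays (log2 signal). It was 2.03-fold higher in APR-AZA than in APR (log2 1.02 ± 0.10, SE; limma adjusted p = 9.48e-06), and 1.72-fold higher in AZA than in NT. The signal of CD80 without AZA lay under the array medians, so its fold may be understated. CD86 stood at 9.84, 9.93 and 9.78 in the APR-AZA arrays, at 9.96, 9.79 and 9.83 in the AZA arrays, at 9.39, 9.20 and 9.08 in the APR arrays and at 9.02, 9.14 and 9.18 in the NT arrays. It was 1.55-fold higher in APR-AZA than in APR (log2 0.63 ± 0.09, SE; limma adjusted p = 0.000237) and 1.68-fold higher in AZA than in NT. For both genes the arrays with AZA did not overlap those without. Their receptors CD28 and CTLA4, which T cells express, had log2 changes of -0.13 ± 0.07 and 0.03 ± 0.08 (SE) in APR-AZA against APR and were not called.

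CD276 (B7-H3), a B7 relative that restrains T cells in many settings, was lower with AZA. Its log2 signal was 7.24, 7.24 and 7.34 in the APR-AZA arrays, 7.39, 7.20 and 7.31 in the AZA arrays, 7.58, 7.66 and 7.65 in the APR arrays and 7.51, 7.58 and 7.50 in the NT arrays. The arrays with AZA lay below all arrays without it. The gene was 1.28-fold lower in APR-AZA than in APR (log2 -0.36 ± 0.07, SE; limma adjusted p = 0.00337) and 1.17-fold lower in AZA than in NT. TREML2, proposed in mouse as a receptor of CD276, was 7.06-fold higher in APR-AZA than in APR, at 8.39 ± 0.05 and 5.57 ± 0.12 on the log2 scale (SD, n = 3 each; limma adjusted p = 5.57e-08).

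The PD-1 ligands CD274 and PDCD1LG2 showed no called difference in any comparison tested. CD274 stood at 3.51, 3.77 and 3.38 in the APR-AZA arrays, at 3.48, 3.40 and 3.50 in the AZA arrays, at 3.55, 3.57 and 3.53 in the APR arrays and at 3.49, 3.67 and 3.66 in the NT arrays (log2 signal). PDCD1LG2 had 3.76, 3.51 and 3.66 in the APR-AZA arrays, 3.72, 3.66 and 3.62 in the AZA arrays, 3.64, 3.67 and 3.54 in the APR arrays and 3.39, 3.66 and 3.75 in the NT arrays. For PDCD1LG2 all 4 groups overlapped, as did the CD274 arrays of APR-AZA with those of every other group. Both genes were among the dimmest 30% of genes, where a change is hard to see. For APR-AZA against APR the 95% interval of the log2 change was -0.20 to 0.22 for CD274 (limma adjusted p = 0.983) and -0.19 to 0.24 for PDCD1LG2 (limma adjusted p = 0.908). RGMB, which also binds PDCD1LG2, was 2.65-fold higher in APR-AZA than in APR (limma adjusted p = 1.09e-05).

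IRF1, the interferon-response factor known to drive CD274 transcription in other cells, was 3.72-fold higher in APR-AZA than in APR, at 8.10 ± 0.04 and 6.20 ± 0.16 on the log2 scale (SD, n = 3 each; limma adjusted p = 1.3e-08). The window before the CD274 start is shown because it holds letters that interferon-response factors are known to bind, at chr9:5450292-5450541 (GRCh38.p14, plus strand), with matches to the interferon-response element GAAANNGAAA on either strand in capitals.
CD274: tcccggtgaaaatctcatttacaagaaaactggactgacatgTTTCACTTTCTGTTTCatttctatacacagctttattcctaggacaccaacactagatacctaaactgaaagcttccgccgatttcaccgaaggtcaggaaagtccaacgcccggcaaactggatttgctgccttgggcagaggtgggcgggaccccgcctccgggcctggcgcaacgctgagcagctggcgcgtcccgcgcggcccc
It held 2 overlapping matches on the minus strand, where 3.02% of all windows held at least 1, and no other listed gene's window held one. A match is a stretch of letters and not a measured site.

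CD47 was the ligand for phagocyte SIRPA in this set. Its log2 signal was 9.70, 9.82 and 9.68 in the APR-AZA arrays, 9.78, 9.60 and 9.69 in the AZA arrays, 10.02, 9.96 and 9.84 in the APR arrays and 10.01, 9.91 and 10.08 in the NT arrays. The arrays with AZA lay below all those without, but the log2 change of -0.21 ± 0.08 (SE) in APR-AZA against APR did not pass limma's test (adjusted p = 0.113). In AZA against NT the log2 difference was -0.31 ± 0.08 (SE). THBS1, a secreted matrix protein that binds CD47, was 15.2-fold higher in APR-AZA than in APR (limma adjusted p = 3.85e-10). THBS1 stood at 10.12, 10.02 and 10.10 in the APR-AZA arrays, at 10.14, 10.21 and 10.15 in the AZA arrays, at 6.12, 5.90 and 6.45 in the APR arrays and at 5.95, 6.32 and 6.19 in the NT arrays. SIRPA itself was 1.41-fold higher in APR-AZA than in APR (limma adjusted p = 0.000335) and its relative SIRPB1 was 1.58-fold lower (limma adjusted p = 0.000398), and as the 2 genes resemble each other, their signals may not be fully separate.

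**Figure D2:**
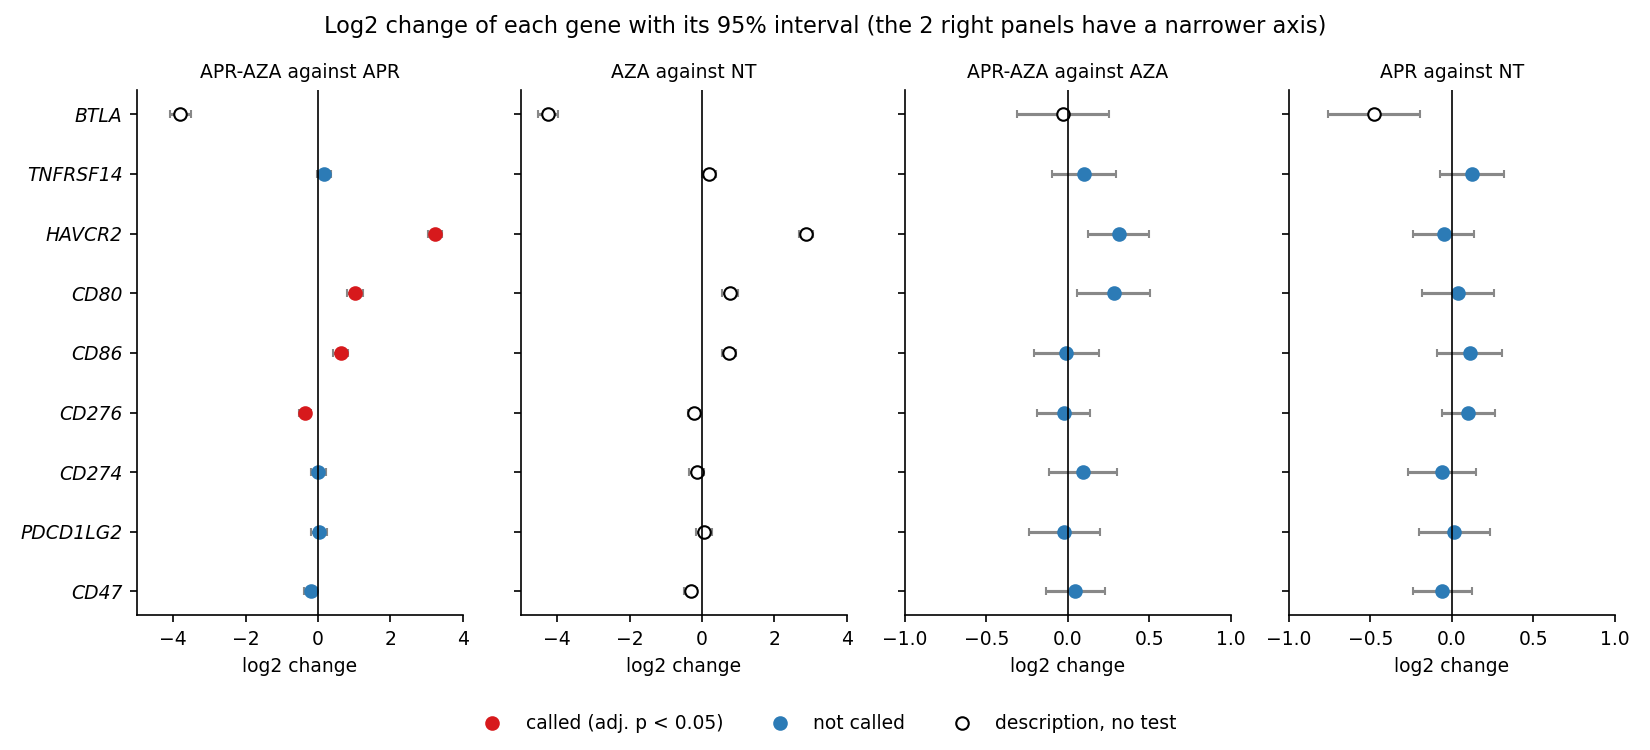
Log2 change of each member (horizontal axis) with its 95% interval in APR-AZA against APR, AZA against NT, APR-AZA against AZA and APR against NT. Red points were called by limma and blue points were tested and not called. Open points, BTLA in every panel among them, are descriptions, and so are their intervals. HAVCR2, CD80, CD86 and CD276 are the 4 called, all in APR-AZA against APR, and the right pair of panels spans -1 to 1 only.

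Values against NT are given without a test. In AZA against NT the arrays of the groups did not overlap for 6 of the 9 members, against 32.1% of all genes, and in APR-AZA against NT for 7 of 9, against 35% of all genes. BTLA was 19.4-fold lower, HAVCR2 9.09-fold higher and CD80 2.09-fold higher in APR-AZA than in NT. CD86 was 1.67-fold and TNFRSF14 1.23-fold higher, and CD276 and CD47 were 1.19-fold and 1.20-fold lower. AZA against NT and APR-AZA against NT share the NT arrays, and nothing is read from the counts because BTLA was chosen on those values.

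APR alone was compared with NT. Limma called 0 of the 8 members tested, against 0.00356% of all genes, and 0 had an unadjusted p under 0.05, against 3.89% of all genes. BTLA, given without a test because its choice drew on the same NT arrays, was 1.39-fold lower in APR (log2 -0.48 ± 0.13, SE). That choice favours high NT values, so the difference may be overstated and nothing is read from it. All 3 APR arrays lay below all 3 NT arrays. With TNFRSF14, whose APR arrays lay above NT, that made 2 of 9 members without overlap, against 7.48% of all genes, and nothing is read from this count. The other 8 members had log2 changes between -0.06 and 0.12, with 95% intervals that stayed within -0.27 and 0.32. The linear model without moderation also called 0 members and gave 0 an unadjusted p under 0.05.

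APR added to AZA was tested in APR-AZA against AZA. Limma called 0 of the 8 members tested and 0% of all genes, and 2 members had an unadjusted p under 0.05, against 4.69% of all genes, as they did in the linear model without moderation. These were HAVCR2, 1.24-fold higher in APR-AZA (log2 0.31 ± 0.09, SE; 95% interval 0.12 to 0.50; limma unadjusted p = 0.00341, adjusted p = 0.986), and CD80, 1.22-fold higher (log2 0.28 ± 0.10, SE; limma unadjusted p = 0.0176, adjusted p = 0.986). For these 2 members, and no other, the 3 APR-AZA arrays did not overlap the 3 AZA arrays, against 11.6% of all genes. BTLA, whose choice drew on the same AZA arrays, had a log2 change, given without a test, of -0.03 ± 0.13 (SE; 95% interval -0.31 to 0.25).

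Whether AZA acted differently with and without APR was tested as non-additivity, the AZA effect with APR minus the AZA effect without it. Limma called 0 of 8 members and 0% of all genes, and 1 member, HAVCR2, had an unadjusted p under 0.05, against 3.52% of all genes, and 1 did without moderation too. HAVCR2 had an extra log2 change of 0.36 ± 0.12 (SE; limma unadjusted p = 0.0117, adjusted p = 0.9998). For BTLA, given without a test, the AZA effect was -3.80 with APR and -4.25 without it on the log2 scale. BTLA was chosen on the value without APR, which favours a large fall there, so nothing is read from the gap.

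The other genes of these pathways were taken from 5 lists, and counted in APR-AZA against APR beside the 20.7% of all genes called. Of 16 measured partners of the members, 4 rose and 2 fell, with a median log2 change of -0.04. These 6 were THBS1, TREML2, RGMB and SIRPA, which were higher, and TNFSF14 and SIRPB1, which were lower, RGMB, SIRPA and SIRPB1 being named after their values were seen, as are LTA, CD160, CD28, CTLA4, PTPN6 and PTPN11.

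In the other B7 and butyrophilin genes 5 of 14 rose and 2 fell, with a median log2 change of 0.08. VSIG4, a macrophage complement receptor that restrains T cells, was 3.48-fold higher (limma adjusted p = 9.2e-07), at 6.92 ± 0.18 in APR-AZA and 5.12 ± 0.07 in APR (log2 signal, SD, n = 3 each). VSIR (VISTA), a myeloid checkpoint, was 2.08-fold higher (limma adjusted p = 0.000122). NCR3LG1 (B7-H6), which activates NK cells through NKp30, was 2.14-fold lower (limma adjusted p = 2.58e-06), at 7.53 ± 0.21 in APR-AZA and 8.63 ± 0.05 in APR.

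Among other inhibitory receptors and ligands 3 of 30 rose and 3 fell, with a median of 0.03. HLA-E, which engages the NK receptor NKG2A, was 1.89-fold higher (limma adjusted p = 2.93e-05). The collagen receptor LAIR1 and CD244, a receptor of NK and myeloid cells, were 1.72-fold and 1.47-fold lower (limma adjusted p = 0.000469 and 0.000436). Of 15 co-stimulatory TNF family genes 1 rose and 1 fell, with a median of 0.10. CD70, the ligand of CD27, was 2.62-fold lower (limma adjusted p = 2.29e-07), at 7.85, 7.68 and 7.69 in APR-AZA arrays against 9.02, 9.08 and 9.28 in APR arrays. TNFRSF4 (OX40) was 1.29-fold higher (limma adjusted p = 0.0244), and its call was lost without APR-AZA replicate 1 (adjusted p = 0.0753), APR-AZA replicate 2 (0.0736) or APR replicate 3 (0.088), which left 1 call in this list in the first 2 of these cases.

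In the genes of signalling and turnover 7 of 21 rose and 1 fell, with a median log2 change of 0.08. Besides IRF1, ADAM17, a protease that sheds surface proteins, was 1.78-fold higher (limma adjusted p = 1.13e-05), and MYC was 2.17-fold lower (limma adjusted p = 8.5e-07). CMTM6, which keeps CD274 at the cell surface, had a log2 change of -0.04 ± 0.07 (SE), was not called, and was named after its value was seen.

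**Figure D3:**
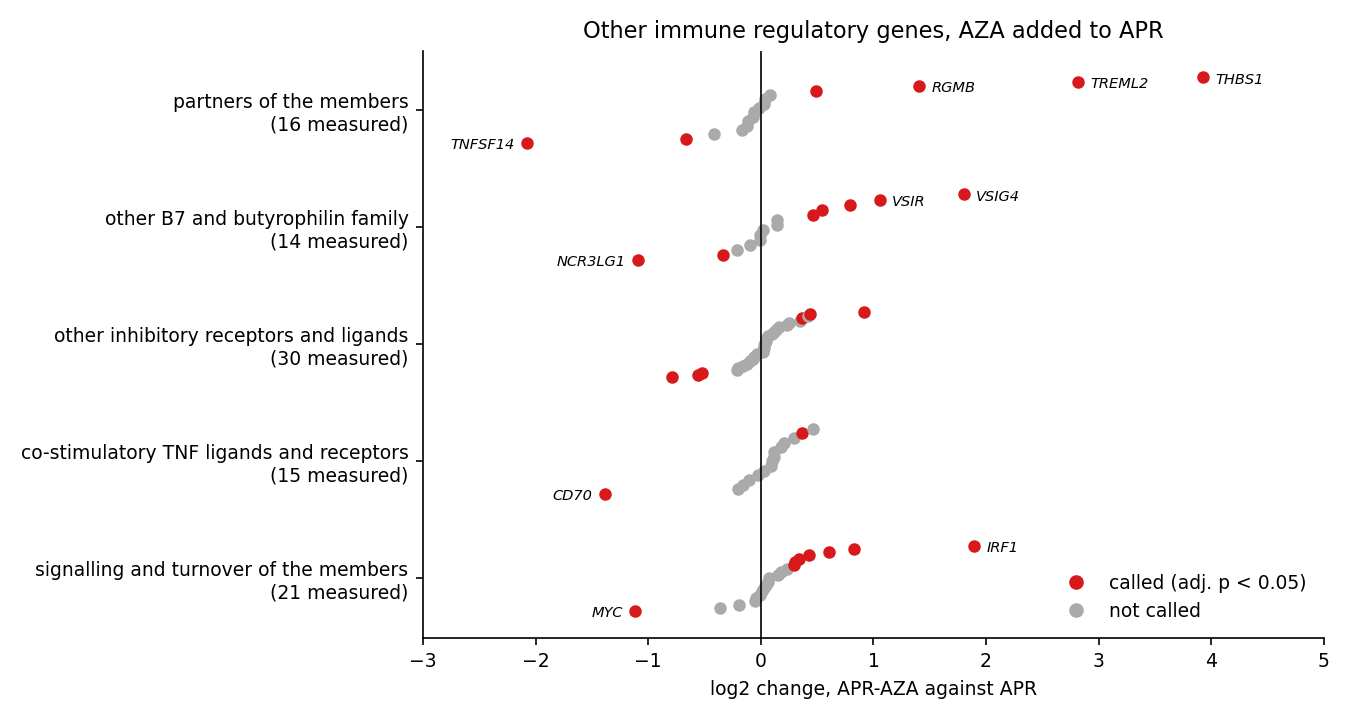
Log2 change in APR-AZA against APR (horizontal axis) of the measured genes of 5 lists of immune regulators, a point for each gene, spread vertically in rank order. Red points were called by limma and grey points were not; THBS1, TREML2, IRF1 and VSIG4 lie to the right and TNFSF14 and CD70 to the left.

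The 5 genes whose pattern was most like that of BTLA were found by the root mean square difference of log2 values, each gene taken relative to its NT mean, over the 9 treated arrays. They were the noncoding RNA LOC105375878 at 0.45, the progenitor transcription factor MYB at 0.87, the death ligand TNFSF10 at 0.97, the receptor P2RY8 at 1.03 and ELANE, neutrophil elastase, at 1.15. Their fall with AZA follows from this choice. LOC105375878 stood at 4.96 ± 0.16 in APR-AZA, 5.07 ± 0.17 in AZA, 8.52 ± 0.03 in APR and 8.80 ± 0.11 in NT (log2 signal, SD, n = 3 each). The 3 nearest measured genes on each side of BTLA in the RefSeq gene order were CD200, SLC9C1 and GCSAM on one side and ATG3, SLC35A5 and CCDC80 on the other. Of these 6, ATG3, an autophagy enzyme, was 1.27-fold lower in APR-AZA than in APR (limma adjusted p = 0.00385). The other 5 were not called, with log2 changes between -0.06 and 0.14. CD200, SLC9C1, GCSAM and CCDC80 had mean log2 signals of 3.21, 3.26, 4.38 and 4.08 in NT. These lay under the array medians, where a fall is hard to see, while SLC35A5 and ATG3 stood at 9.36 and 10.83 in NT.

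**Figure D4:**
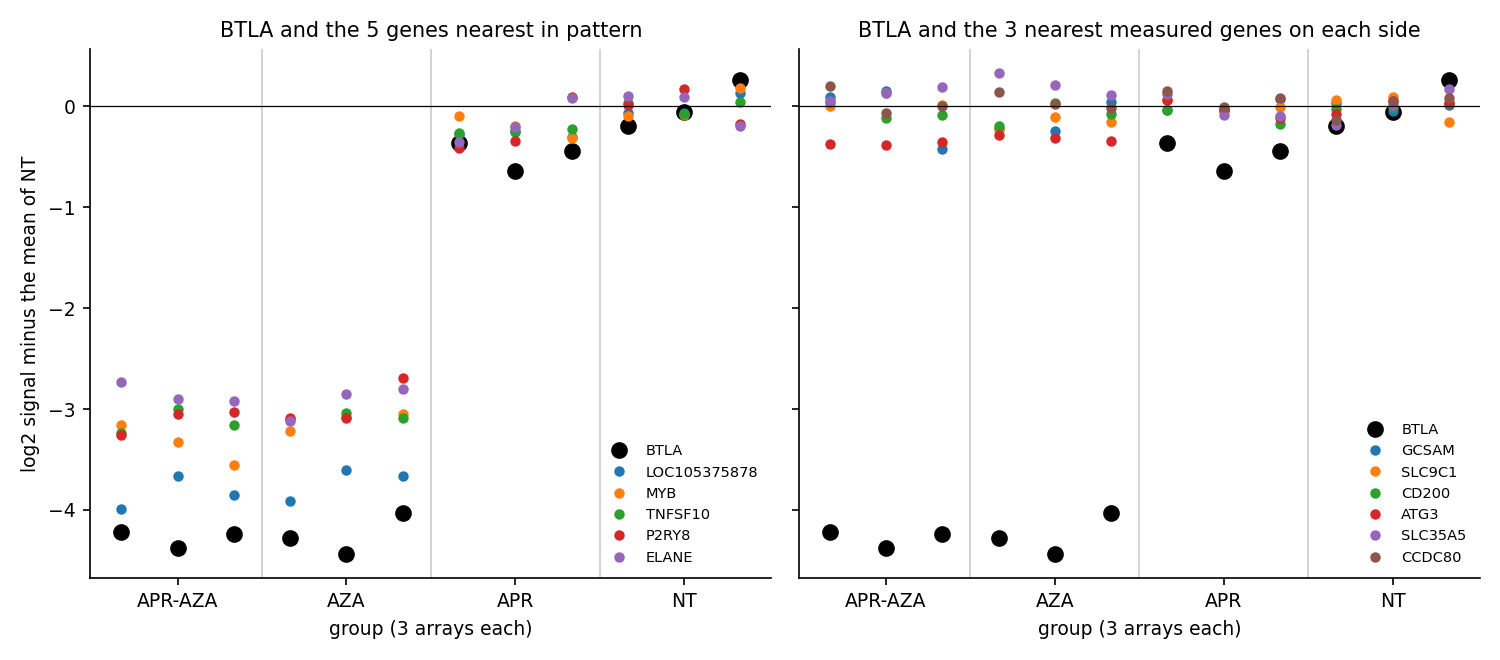
Log2 signal minus the mean of the NT arrays (vertical axis) on each array, for BTLA with the 5 genes nearest to it in pattern (left) and with its 6 nearest measured neighbours in gene order (right). In arrays with AZA, BTLA and the left panel's genes fell well under 0, while the neighbours stayed within about 0.5 of it. The fall in the left panel follows from how its genes were chosen. CD200, SLC9C1, GCSAM and CCDC80 were dim in NT already.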

How the data were processed

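The 12 arrays were grouped by their titles into 4 groups of 3. The deposited values are on the log2 scale, 1 per gene and array, and per the submitters' processing notes the authors made them with RMA and Partek. RMA corrects background, sets arrays to a common distribution and summarises probes, so a shift of most genes would be removed and low signals are compressed. No chip definition or build is given in the sources used here. Of 29413 rows, 28129 carry a single symbol by the platform annotation and the other 1284 are unnamed here; for 4 repeated symbols the brighter row was kept, leaving 28125 genes, with no filter. Arrays give no depth, and their number limits the precision. The arrays are distinct: no 2 of them share more than 0.0952% of values.

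The test was moderated linear modelling (limma 3.58.1 under R 4.3.3) in 1 model of 4 group means with 8 residual degrees of freedom, adjusted by Benjamini-Hochberg over all genes and called under 0.05. BTLA was taken out of the tests of APR against NT and APR-AZA against AZA after seeing the data, since its choice used arrays of both. Nothing in the labels ties replicates to separate cultures, and the p-values therefore cover array-to-array spread that may be technical only. Folds are 2 to the power of the log2 change. The script was tested on simulated data first.

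All members were to be named. From each other list up to 3 called genes with the largest changes in APR-AZA against APR were named. Other genes of these lists are marked as named after their values were seen. The members and lists were chosen with earlier results of these data known. Alternatives were another normalization, a filter on dim genes, other variance models, fewer groups, array weights, averaged repeat rows, the replicate number as a block and each array left out; list genes and neighbours were added to them after seeing the data.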

Additional observations from a re-analysis of the deposited data

How the results depend on the processing

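HAVCR2, CD80, CD86 and CD276 stayed called in APR-AZA against APR in the same direction in all 21 alternatives, with a highest adjusted p of 0.0177 for CD276, and no other member was called in any tested comparison. The replicate numbers did not pair the arrays: deviations of same-numbered arrays correlated at -0.25 to 0.14 over 18 pairs, 3 of them over 0.1. With the number as a block 5436 genes were called in APR-AZA against APR, in place of 5813, and the counts of members called stayed at 4, 0, 0 and 0 in APR-AZA against APR, APR against NT, APR-AZA against AZA and non-additivity. Repeated quantile normalization and median centring each gave 8 members with no overlap in AZA against NT, in place of 6. The count was 6 to 8 with an array left out. The share of all genes without overlap was not computed under these settings, so nothing is read from these counts. Leaving out an array gave 1 to 4 called genes in the co-stimulatory list. ADAM10, of the signalling and turnover list, was named after its value was seen. It lost its call without APR-AZA replicate 2 (limma adjusted p = 0.0634) or APR replicate 3 (0.0557).

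Values near 0 that were never called changed sign. CD86 in APR-AZA against AZA stood at 0.0133 after repeated quantile normalization and at 0.00764 with array weights. Under median centring CD274, PDCD1LG2 and CD200 stood at -0.0243, -0.00266 and -0.00591 in APR-AZA against APR. With an array left out, the log2 ranges in APR-AZA against APR were -0.101 to 0.0918 for CD274, -0.0304 to 0.0946 for PDCD1LG2, -0.0266 to 0.0576 for CD200, -0.105 to 0.0306 for CCDC80 and -0.164 to 0.125 for GCSAM. In APR-AZA against AZA they were -0.125 to 0.0754 for BTLA (no test), -0.0157 to 0.177 for CD274, -0.0798 to 0.0451 for PDCD1LG2, -0.0503 to 0.0420 for CD86 and -0.0734 to 0.0183 for CD276. In APR against NT they were -0.104 to 0.0188 for HAVCR2, -0.0905 to 0.0890 for PDCD1LG2 and -0.0355 to 0.153 for CD80, and in non-additivity -0.0871 to 0.0798 for TNFRSF14 and -0.111 to 0.0685 for PDCD1LG2. The cause of these changes was not tested. Dim signals limit what can be seen for CD274 and PDCD1LG2, which the filter on dim genes leaves out.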
